A study of Mus musculus with 16 samples.

Results

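Livers of female mice with induced primary liver cancer were compared after ovariectomy and after sham surgery. The comparison took in 8 of the 16 libraries of the series, 4 from sham-operated and 4 from ovariectomized mice, and 13059 of the 16793 genes of the deposited table, those with a mean of at least 10 normalized read counts over the 8 libraries. Both groups carried the induced cancer and the genotype label WT, and liver tissue was taken from both at the end of the experiment. The sources used here do not state the strain, the age, the agent that induced the cancer, or whether tumour or neighbouring tissue was taken. A normalized read count is the number of reads of a gene in a library after division by 1 scaling factor for that library. It is not corrected for transcript length, so counts are compared between libraries and not between genes. Changes are log2 fold changes of ovariectomy against sham on the log2(value + 1) scale, and a gene was called higher or lower at a limma adjusted p below 0.05. The labels do not say that each library came from a separate animal, so p-values measure the spread between these libraries, which may be technical.

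The ovaries are the main source of circulating estrogen, and removing them lowers the estrogen signal that liver cells receive through the receptor encoded by Esr1. The liver makes most plasma proteins, clears ammonia through the urea cycle, releases glucose in fasting and oxidizes steroids and drugs, and many of these functions differ between female and male rodents. Induced liver cancer adds dividing cells, matrix and immune cells to the tissue. In RNA from whole tissue, fewer cells of a type and less RNA per cell cannot be told apart, and this holds for every result below.

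Depth, as recovered reads, lay between 21428827 and 25850761 in sham libraries and between 17782178 and 27110501 after ovariectomy. For most genes in which libraries 1 and 4 of a group were far apart, libraries 2 and 3 lay between them. Among 1167 genes that reached 100 in the group and for which sham libraries 1 and 4 were at least 2-fold apart, sham library 2 stood at a median share of 0.658 of the way from library 4 to library 1 and sham library 3 at 0.456, and 92.6% and 94.1% of these genes lay between the end libraries. Among 578 such genes after ovariectomy, the shares were 0.766 and 0.618, with 90.3% and 90.8% of genes between the ends. Fitted on libraries 1 and 4 of each group alone, limma called 0 genes at an adjusted p below 0.05, edgeR called 0 and DESeq2 called 543. The smallest limma adjusted p was 0.177, with 1678 genes at an unadjusted p below 0.05. All 5170 genes called from the 8 libraries kept the sign of their change. They were selected on values that include libraries 1 and 4, so the shared sign is no separate support. Values are therefore given for libraries 1 to 4 in order wherever a result turns on a gene. Zeros were erratic in some genes: in 22 genes of the sham group and 16 of the ovariectomy group, at least 1 library was listed at 0 and another at 100 or more.

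The study also overexpressed Lcat in other mice and asks about estrogen, so Lcat and the estrogen receptor gene are given first. Lcat, which encodes the enzyme that esterifies cholesterol on high-density lipoprotein, fell and Esr1 did not pass the test. It was 5714, 5656, 5578 and 5701 in sham libraries 1 to 4 and 3637, 3458, 3399 and 3061 after ovariectomy (log2 fold change -0.74, SE 0.067, limma adjusted p = 0.000167; two-sided exact permutation p = 0.0286, below which 4 libraries against 4 cannot go). The groups did not overlap. Esr1 was 328, 350.0, 102 and 500.1 in the sham libraries and 436, 339.7, 397 and 89.5 after ovariectomy, with a log2 fold change of -0.04 (95% interval -1.43 to 1.36, limma adjusted p = 0.965, exact two-sided permutation p = 0.914). One library of each group was low, library 3 after sham surgery and library 4 after ovariectomy, and the groups overlapped.

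Ovariectomy was followed by changes over much of the transcriptome, with nearly even numbers of genes in each direction and opposite balances at low and high counts. Of the 13059 genes, 5170 (39.6%) were called, 2484 higher (19.0%) and 2686 lower (20.6%), and the 4 sham and 4 ovariectomy values did not overlap in 5090 (39.0%). The split between higher and lower rested on the scaling. With library totals set equal, 4441 genes (34.0%) were higher and 1209 (9.26%) lower, because the median change over all genes moved from 0.00 to 0.24, and the share of calls that were higher went from 48.0% to 78.6%. Changes below are as deposited, and each can be read against that shift of 0.24. Leaving out any 1 library gave between 3656 and 6515 calls.

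By count class, 871 of 3268 genes with a mean of 10 to 100 were higher and 243 lower, with a median change of 0.38. From 100 to 1000 the numbers were 1273 higher and 1499 lower of 7175 (median -0.02), and from 1000 to 10000 they were 320 and 863 of 2430 (median -0.15). Of the 186 genes with a mean of 10000 or more, 20 were higher and 81 lower, with a median of -0.27. With equal totals the medians were 0.61, 0.22, 0.09 and -0.03, so the order of the classes was kept while the sign of the middle classes flipped, and 46 genes of the highest class were higher and 52 lower. In that class, 42 genes were higher without ovariectomy library 4, against 20 with it. The median SE was 0.29 in the lowest class and 0.13, 0.10 and 0.12 in the others, in order of counts.

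**Figure D1:**
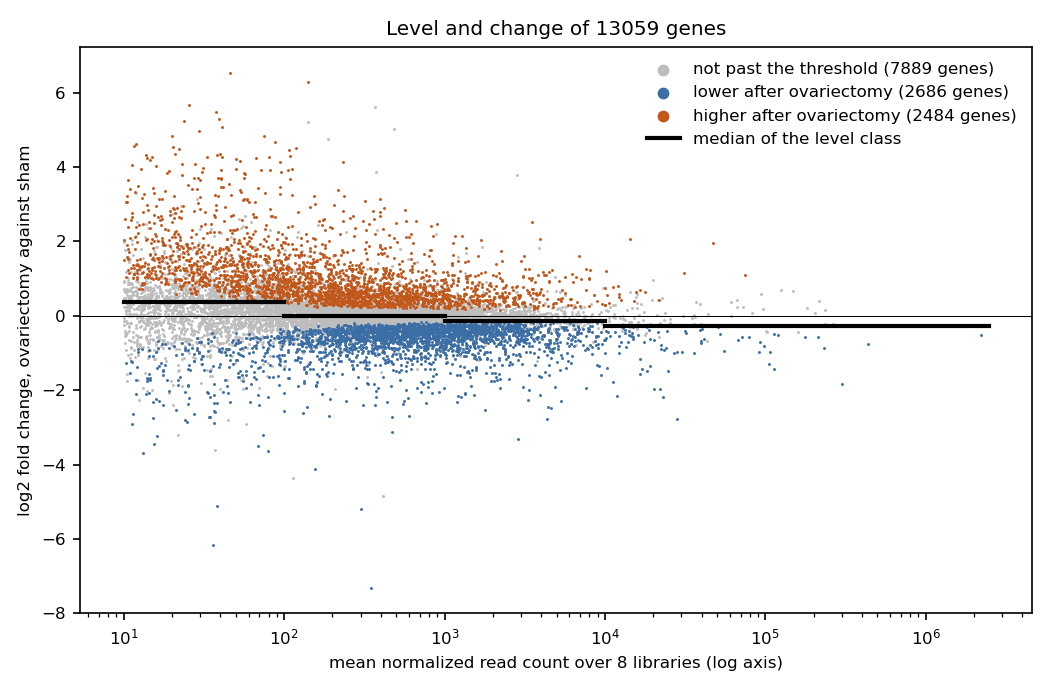
Each point is 1 of 13059 genes, with the mean normalized read count over the 8 libraries on a log x axis and the log2 fold change of ovariectomy against sham on the y axis. The horizontal black lines mark class medians of 0.38, -0.02, -0.15 and -0.27, from the lowest to the highest count class.

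Most called genes changed by less than 2-fold. Of the calls, 576 higher and 1175 lower genes had an absolute log2 fold change under 0.5, and 908 higher and 1053 lower genes lay between 0.5 and 1. Between 1 and 2 the numbers were 729 higher and 371 lower, and at 2 or over 271 higher and 87 lower. Large changes were mostly in genes of low counts: 202 of the 271 large increases had a mean under 100, and 1 had a mean of 10000 or more. Small decreases were the commonest call among well measured genes, with 448 decreases and 142 increases under 0.5 in the class from 1000 to 10000. In 589 genes (4.51% of those tested) the 95% interval of the change lay within 0.25 of 0, of which 355 were in the class from 100 to 1000 and 226 in the class from 1000 to 10000.

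The calls were spread over all chromosomes. On the autosomes, 14.8% (chromosome 13) to 22.3% (chromosome 6) of genes tested were higher and 18.6% (chromosome 2) to 24.2% (chromosome 19) lower. The X chromosome had 22.5% higher and 15.8% lower of 386 genes. The mitochondrial genome stood apart, with 0 higher and 12 lower of its 13 genes.

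The genes with the highest counts set the total. The summed normalized count was 21315756 on average in the sham libraries and 18021105 after ovariectomy, and the 10 largest decreases made up 40.6% of all decreases. Albumin, encoded by Alb and the main carrier protein of plasma, accounted by itself for 23.8% of the difference in totals, Apoa4 for 10.2% and Scd1 for 6.21%. Alb (chromosome 5 from 90460897 to 90476602 on the plus strand, mm10) was 3053958, 2736319.7, 2464929 and 2093519 in the sham libraries and 1823161, 1840958, 1737656 and 1813046 after ovariectomy (-0.51 on the log2 scale, SE 0.13, limma adjusted p = 0.0149). The 4 ovariectomy libraries were close together and below all sham libraries, of which library 1 was highest and library 4 lowest. The call was lost with equal totals (log2 fold change -0.27, limma adjusted p = 0.0639) and without sham library 2 (limma adjusted p = 0.0524).

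Apoa4, which encodes an apolipoprotein of triglyceride-rich particles and high-density lipoprotein, went from 427706, 470237, 461877 and 514469 to 119032, 129317, 131086 and 144753 (log2 fold change -1.84, SE 0.096, limma adjusted p = 2.53e-05). All 4 ovariectomy values were less than all sham values by a wide margin. Scd1 (chromosome 19 from 44394455 to 44407879 on the minus strand), which encodes the desaturase that makes monounsaturated fatty acids, was 541208, 533272, 544360.1 and 541559.6 in the sham libraries and 217297, 278522, 326869 and 519315 after ovariectomy (-0.76, SE 0.23, adjusted p = 0.0311). The sham libraries were nearly equal, whereas ovariectomy library 4 was close to them and library 1 far below, and the call was lost with equal totals (adjusted p = 0.118) and in 6 of the 8 fits with a library left out (adjusted p up to 0.083). Apoe, the ligand by which lipoprotein remnants are taken up, fell from 335272, 319447, 288599 and 258909 to 166223, 169189, 161248 and 154599 (-0.88, SE 0.10, adjusted p = 0.000433), without overlap. The mitochondrial cytochrome oxidase gene mt-Co1 fell from 269440.4, 250329.5, 244208 and 251300.1 to 152071, 159406, 173337 and 202859 (-0.57, SE 0.11, adjusted p = 0.00402), also without overlap.

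The other 7 of the 12 genes with the highest counts did not pass the test. Transferrin (Trf), the iron carrier, was 751160.0, 810779, 770542 and 745815 and 701191, 706902, 612669 and 549950.0 (-0.27, adjusted p = 0.0769), and the 4 ovariectomy values lay below the sham values. Fetuin-A (Ahsg) had a change of -0.21 and Apoa1, the main protein of high-density lipoprotein, one of -0.21. Complement C3 (C3) was 203140.1, 211431, 219544 and 248864 in the sham libraries and 294995, 269170.4, 252539.6 and 173984 after ovariectomy. Haptoglobin (Hp), which binds free hemoglobin, was 193944, 203030.3, 190724 and 193232 and 270734, 258909.7, 221202 and 111462, and hemopexin (Hpx), which binds free heme, was 150858, 173485, 171225 and 175353 and 230515, 225283, 189633 and 137579. In C3, Hp, Hpx and the protease inhibitor gene Pzp, ovariectomy libraries 1 to 3 were above every sham library and library 4 below them, so the groups overlapped. Fibrinogen followed the same order: Fga was 114779, 112166, 110339 and 112779 in the sham libraries and 244529.5, 213326, 189802 and 99442 after ovariectomy (0.65, SE 0.25, adjusted p = 0.0666). Leaving out ovariectomy library 4 gave calls for C3, Hp, Hpx, Pzp and Fga, with log2 fold changes of 0.30, 0.35, 0.36, 0.56 and 0.93.

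**Figure D2:**
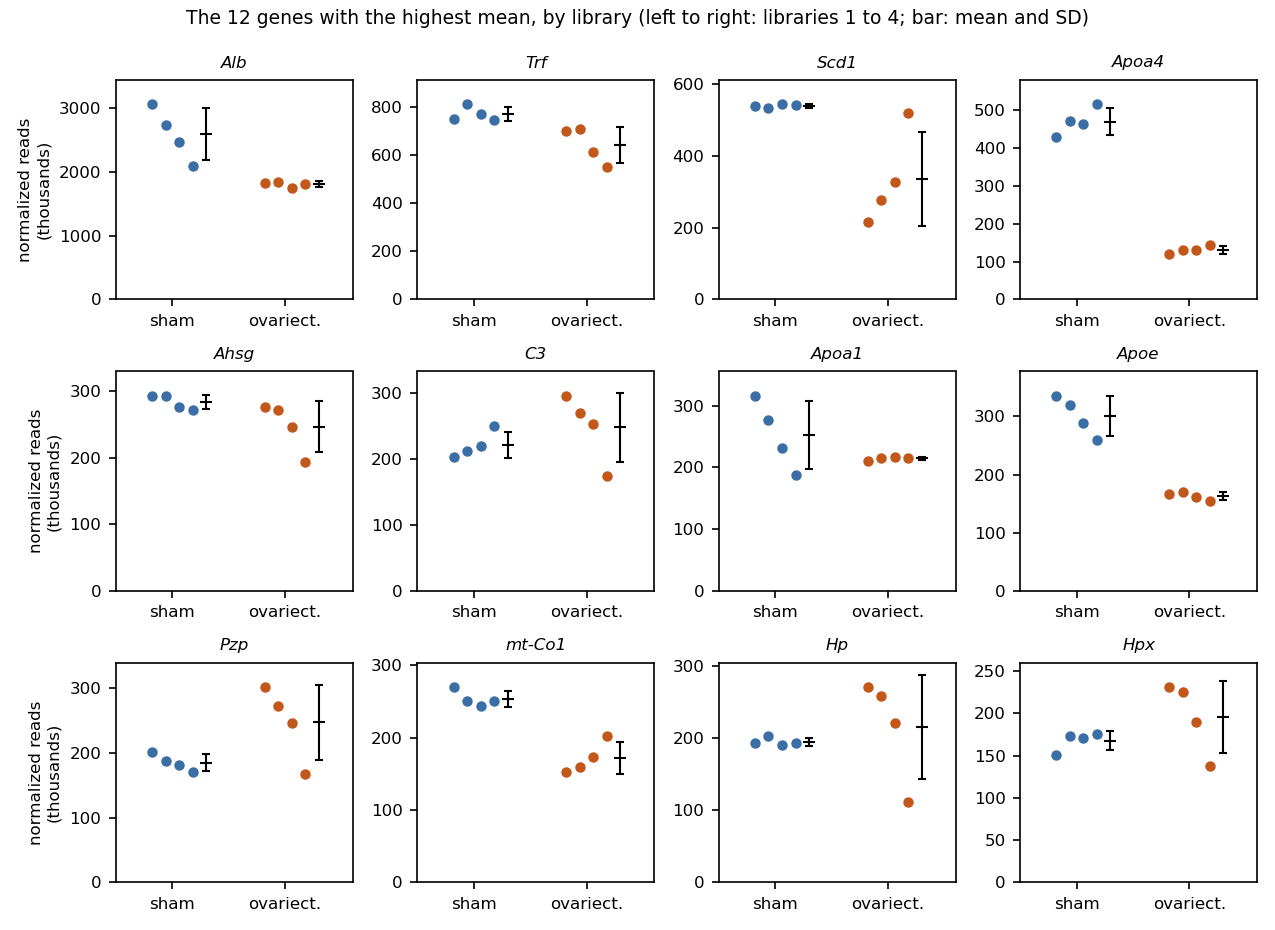
The 12 genes with the highest mean are drawn by library, with normalized read counts divided by 1000 on linear y axes from 0, libraries 1 to 4 from left to right in each group, and the mean and SD beside them. Apoa4 and Apoe separate the groups fully, whereas in C3, Pzp, Hp and Hpx ovariectomy library 4 lies below the other 3.

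Within each count class, the largest changes given here are those of called genes whose groups did not overlap. Below the 12 genes above, the highest class held genes of glucose output, amino acid breakdown and steroid oxidation among its largest decreases, and secreted stress proteins among its largest increases. Pck1 (chromosome 2 from 173153048 to 173159273 on the plus strand), which encodes the enzyme of the first committed step of gluconeogenesis, was 58411, 52739, 47044 and 38901 in the sham libraries and 7535, 7449.6, 7163 and 6562 after ovariectomy (log2 fold change -2.77, SE 0.13, limma adjusted p = 1.95e-05). Bhmt, which remethylates homocysteine with betaine, went from 30562, 31239, 31399.5 and 33645 to 4853, 7113, 8573 and 14448 (-1.97, adjusted p = 0.00126), and Cyp3a11, a major drug-oxidizing enzyme, from 32756, 33919.9, 34921 and 36775 to 6348, 7829, 9002 and 13555 (-1.97, adjusted p = 0.000292). None of the 3 overlapped, and Bhmt and Cyp3a11 were highest after ovariectomy in library 4. Tat (-2.18), which starts tyrosine breakdown, and the mitochondrial carrier gene Slc25a47 (-2.17) completed the 5 largest decreases.

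Orm2, which encodes an acute-phase glycoprotein, rose most in this class, from 3687, 4636, 5078 and 7040.2 to 32973, 28107, 23960.0 and 8544 (log2 fold change 2.07, SE 0.41, limma adjusted p = 0.00527). Ovariectomy library 4 was far below the other 3 and just above sham library 4. Spp1 (osteopontin, a secreted matrix protein of bile duct cells and macrophages) was 21291, 19614, 17456 and 14652 and 102910.1, 90990.3, 75029.6 and 35106 (1.96, adjusted p = 0.00209), and Lcn2, which encodes a protein that withholds iron from bacteria, was 36104, 49946, 50755 and 51253 and 140298, 106824, 100288 and 65226 (1.10, adjusted p = 0.00654). Both were lowest after ovariectomy in library 4, which was still above every sham library. Gclc, the catalytic subunit of glutathione synthesis, ran the other way and was highest in that library, at 12255, 13597, 15431 and 20475 against 8132, 8277, 8745 and 9572 (0.81, adjusted p = 0.00428).

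In the class from 1000 to 10000, the 5 largest decreases included genes of amino acid breakdown and glucose release. Sds, which deaminates serine, was 8321, 6293, 4705 and 1676 in the sham libraries and 542, 523, 488 and 309.8 after ovariectomy (log2 fold change -3.31, SE 0.45, limma adjusted p = 0.00104). G6pc, the last step of glucose release, was 1498, 2568, 3232 and 4676 and 183, 447, 521 and 1247 (-2.52, adjusted p = 0.00879). Sds was highest in sham library 1 and lowest in sham library 4, G6pc the reverse, and neither gene overlapped between the groups. Mfsd2a (-2.77), a lysophospholipid transporter, Slc25a25 (-2.49), a mitochondrial ATP carrier, and Cyp2c29 (-2.44) were the others. The largest increases were in the serum amyloid genes Saa2 (2.51) and Saa1 (2.06), the neutrophil chemokine gene Cxcl1 (2.13), the cystine importer gene Slc7a11 (2.15) and the cyclin D1 gene Ccnd1 (2.04). Ccnd1, which drives cells out of rest, was 438, 594, 688 and 982 and 3083, 2824, 2734 and 2108 (SE 0.23, adjusted p = 0.000429), without overlap. Reads of Saa1 and Saa2, near-identical copies, may be split between them.

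From 100 to 1000, Cyp2b10 (chromosome 7 from 25897620 to 25926624 on the plus strand), a drug-induced cytochrome P450 gene, was 333, 318, 264 and 256 in the sham libraries and 6.88, 16.9, 20.2 and 26.6 after ovariectomy (log2 fold change -4.11, SE 0.35, limma adjusted p = 0.000137). Its lowest sham value was several times its highest ovariectomy value. Sult2a1 (-3.14), a hydroxysteroid sulfotransferase gene, Hdc (-2.72), which makes histamine, and Pdk4 (-2.70), which shuts pyruvate dehydrogenase, were also among the 5 largest decreases. Of the 5 largest increases, 3 were mitotic genes. Top2a, which untangles DNA, was 7.38, 11.8, 51.1 and 66.6 in the sham libraries and 389, 422, 423 and 499.6 after ovariectomy (4.13, adjusted p = 0.00174), Tpx2, a spindle assembly factor gene, was 6.32, 3.36, 9.36 and 18.3 and 138, 173, 206 and 301 (4.46, adjusted p = 0.000255), and Cdc20, the activator of the anaphase-promoting complex, was 3.16, 10.9, 7.66 and 17.3 and 108, 141, 206 and 371 (4.30, adjusted p = 0.00054). All 3 were highest in ovariectomy library 4. On the sham libraries alone, Tpx2 and Cdc20 would not have reached the mean needed for testing, nor Top2a this count class. Their place among the largest increases is therefore partly set by these rules. The P450 gene Cyp2d11, named after its values were seen because it was the farthest below 0 of all called genes, was 730.2, 1469, 587 and 0 in the sham libraries and listed at 0 in every ovariectomy library, so that sham library 4 overlapped with them, and the call was lost in 6 of the 8 fits with a library left out. The cytokine gene Il6 was 0, 1.68, 0 and 5.48 and 419, 439.6, 240.0 and 13.8, with library 1 and library 3 of the sham group listed at 0 and ovariectomy library 4 far below the other 3. Il6 too reached the mean needed for testing only through the ovariectomy libraries.

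From 10 to 100, several of the largest changes were against a group listed at 0 in all 4 libraries. Tagap (chromosome 17 from 7926000 to 7934897 on the plus strand), a GTPase-activating gene of activated T cells, was 0 in every sham library and 87.1, 101, 88.8 and 90.5 after ovariectomy, at least 134-fold higher against 3 reads over the sham group. The carboxylesterase gene Ces2b was 0 in every sham library and 45.8, 64.8, 34.3 and 60.0 after ovariectomy, and the adenylate kinase gene Ak5 was 0 and then 73.4, 54.7, 55.4 and 7.87. The odorant-binding protein gene Obp2a (chromosome 2 from 25700043 to 25703326 on the plus strand) went the other way, 53.7, 60.4, 77.5 and 96.7 in the sham libraries and 0 in every ovariectomy library, at least 116-fold lower against 3 reads over the ovariectomy group. The mitotic genes Bub1 (0, 0, 0 and 5.48, then 42.8, 66.2, 76.5 and 108) and Dlgap5 (0, 1.68, 0 and 3.65, then 46.6, 66.9, 73.9 and 122) were near 0 after sham surgery. Genes at or near 0 in either group reached the mean needed for testing only through the other group, so the direction of these changes is set by that rule. Whether these zeros are failed estimates was not tested, and the count of genes with erratic zeros given above cannot tell.

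**Figure D3:**
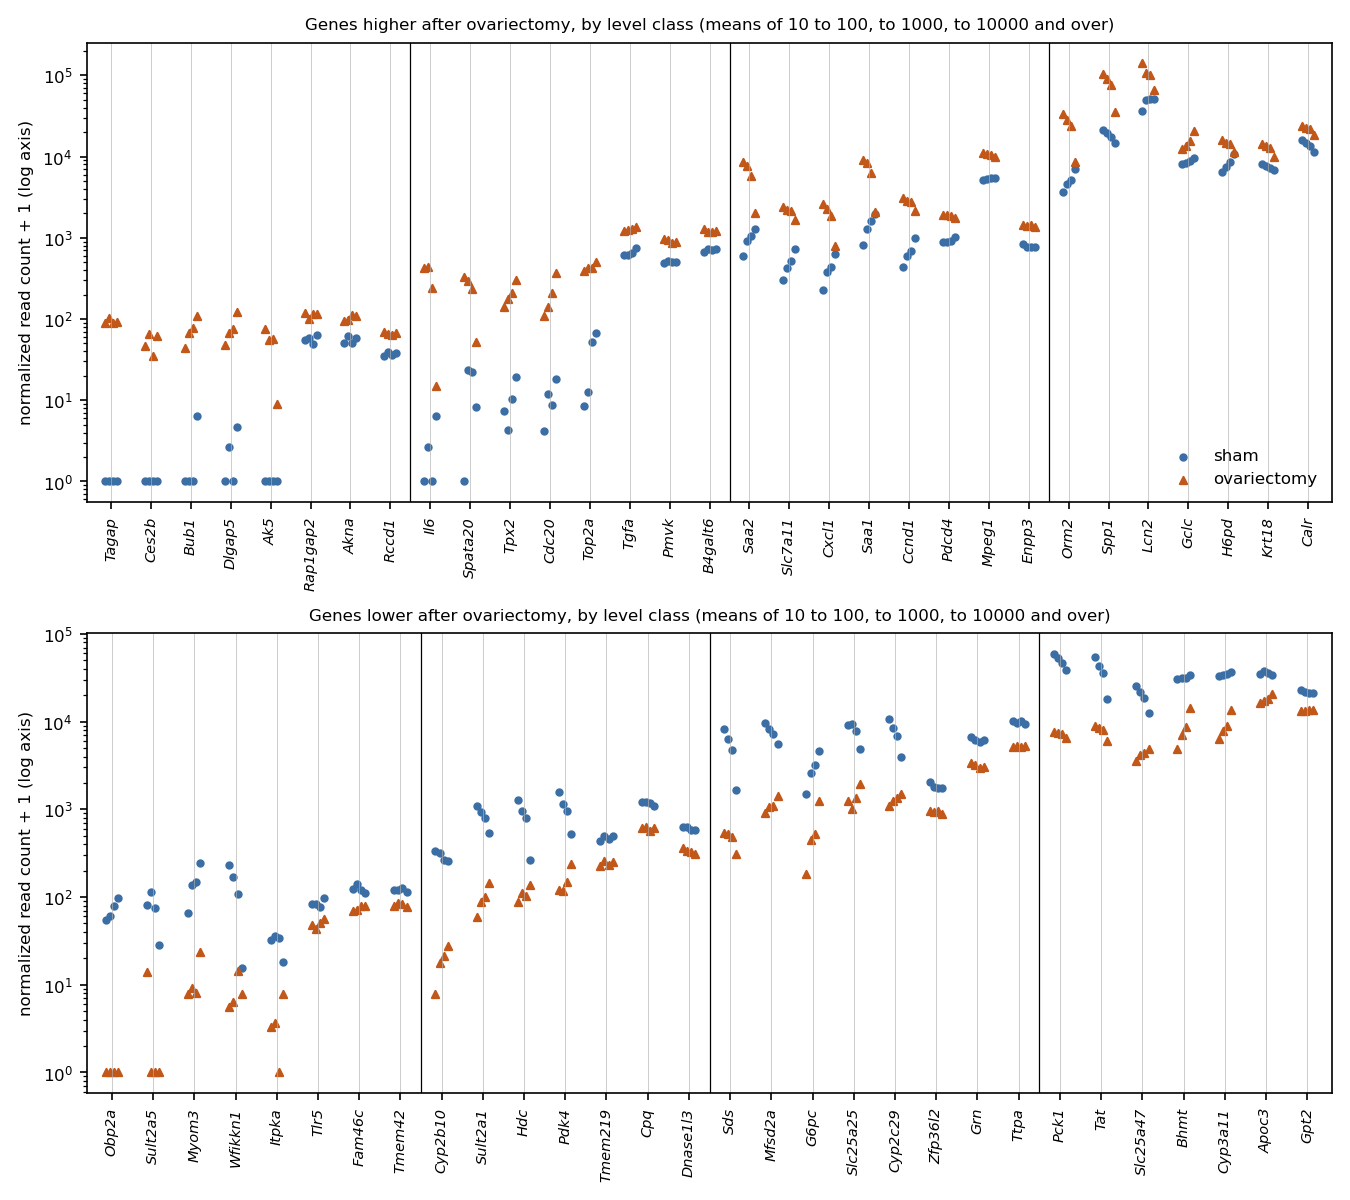
Normalized read counts + 1 on a log y axis are drawn by library for the genes with the largest changes and the best supported moderate changes, sham libraries as circles and ovariectomy libraries as triangles, libraries 1 to 4 from left to right for each gene. Vertical lines divide the count classes. Large changes were chosen among genes whose groups do not overlap, and moderate ones, such as Tgfa and Ttpa, by smallest p. The separation of the groups follows from that choice.

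Moderate changes, of 0.5 to 1 in absolute log2 fold change, are given for called genes with the smallest p per count class and direction. Small spread and wide separation of the groups follow in part from that choice. Ttpa, which loads vitamin E onto lipoproteins, was 10039, 9695, 10064 and 9518 in the sham libraries and 5191, 5258, 5131 and 5324 after ovariectomy (log2 fold change -0.91, SE 0.055, limma adjusted p = 3.17e-05). Mpeg1, which encodes perforin-2 of macrophages, was 5111, 5363, 5462 and 5388 and 11046, 10758, 10318 and 10016 (0.98, SE 0.061, adjusted p = 3.39e-05). Within each group these values varied little, and the groups lay far apart. Grn, which encodes the lysosomal factor progranulin, went from 6643, 6252, 5803 and 6218 to 3365, 3233, 2990.4 and 3068 (-0.98, SE 0.069), and Tgfa, an EGF receptor ligand gene, from 617, 615, 656 and 741 to 1200.4, 1256, 1293 and 1353 (0.96, SE 0.08). Pdcd4 (887, 887, 911 and 1030.2, then 1895, 1919, 1863 and 1727), Enpp3 (0.83), Pmvk (0.85) of the mevalonate pathway and the chaperone gene Calr (0.64) were among the other moderate increases. Apoc3 (35084, 37867, 36111 and 34283, then 16378, 17388, 17897 and 20417), Gpt2 (-0.70), Zfp36l2 (-0.98), Cpq (-0.96) and Dnase1l3 (-0.86) were among the decreases.

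Some genes held their count. Serpina12, which encodes the secreted factor vaspin, was 10972, 11393, 11147 and 11736 in the sham libraries and 10852, 11083, 10991 and 11258 after ovariectomy, a change of -0.03 with a 95% interval of -0.16 to 0.10. Hsp90ab1, a cytosolic chaperone gene, had a change of -0.07 (-0.20 to 0.07), Apof, a lipid transfer inhibitor gene, -0.09 (-0.24 to 0.05), Taok1, a kinase gene, -0.01 (-0.14 to 0.11) and Eif4ebp2, a brake on translation, -0.06 (-0.17 to 0.06). These intervals are of the deposited scaling. With equal totals Serpina12 (0.21), Taok1 (0.23) and Eif4ebp2 (0.19) were called higher.

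Gene groups are described by their counts and medians beside those of all genes tested, of which 19.0% were higher and 20.6% lower with a median of 0.00. The groups, whole families by gene symbol or pathways written out, were described and not tested as sets.

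**Figure D4:**
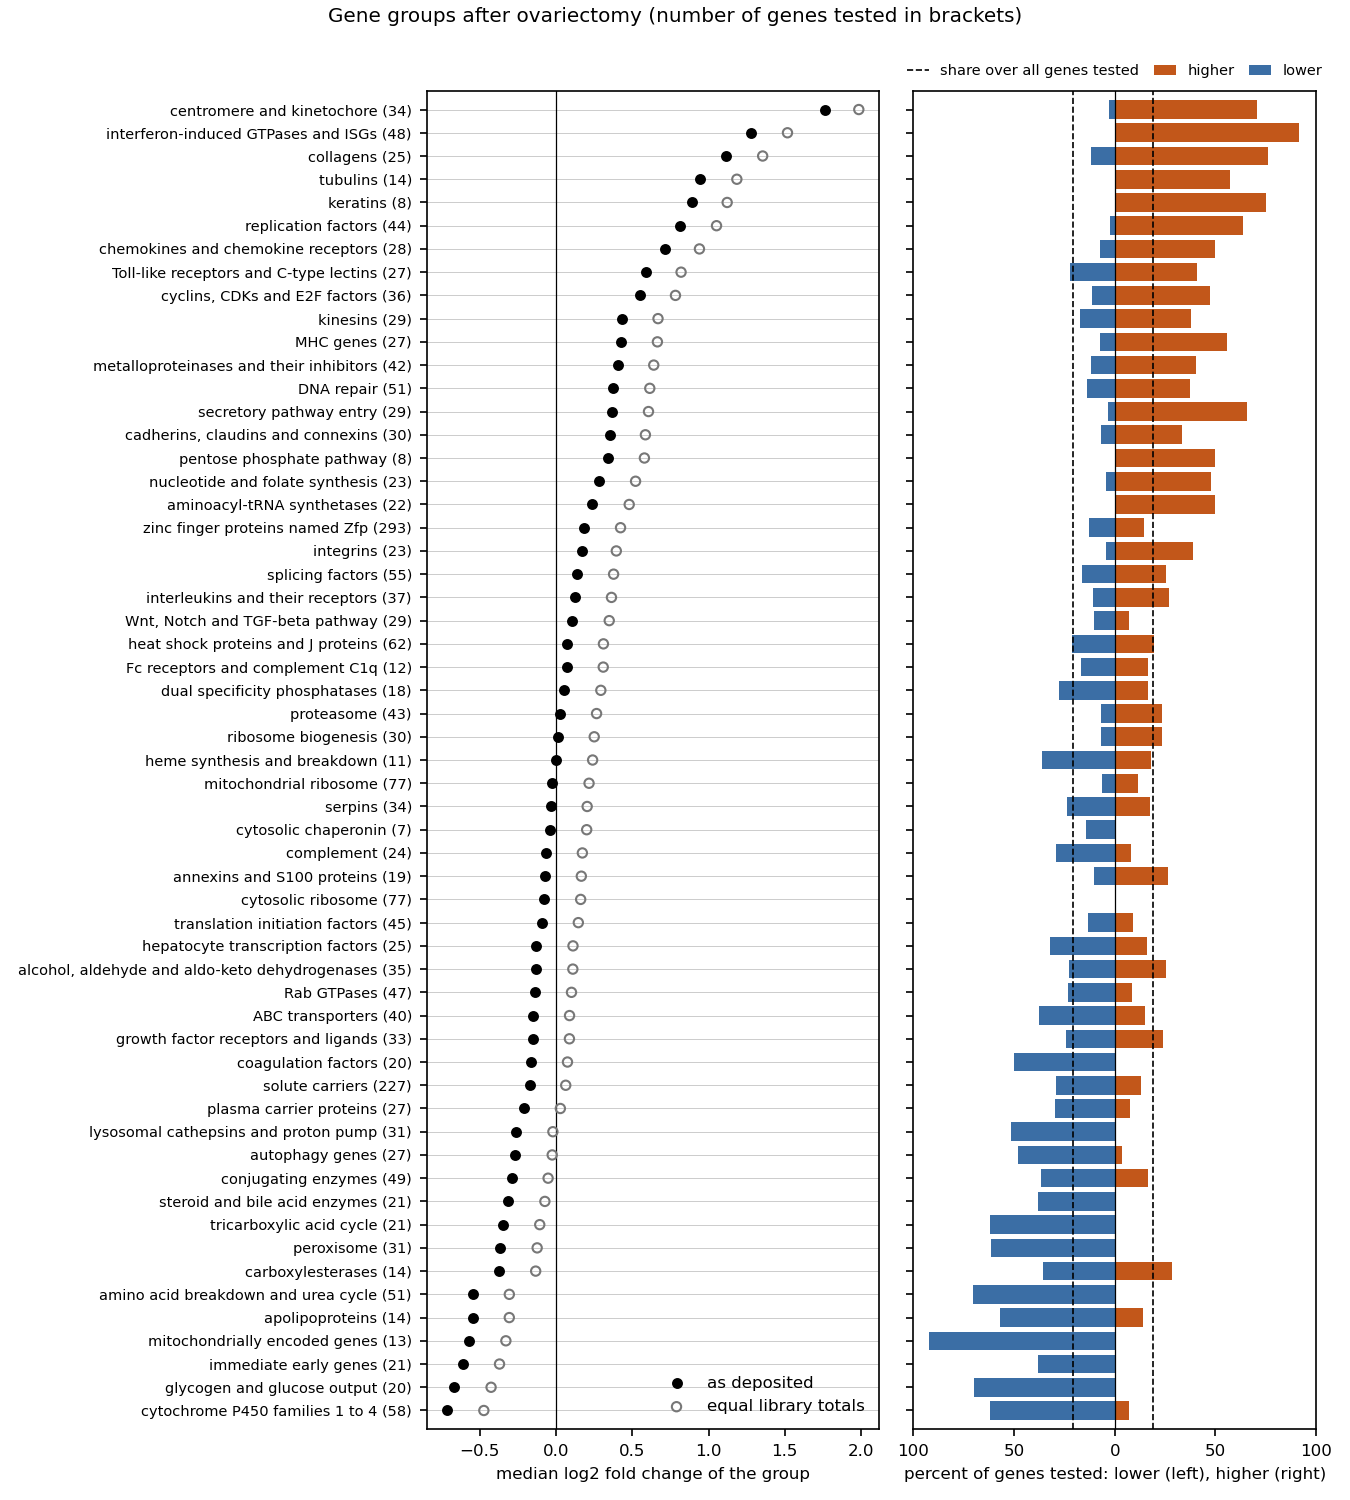
The left panel shows the median log2 fold change of each gene group as deposited (filled) and with equal library totals (open), and the right panel the percent of its tested genes called lower (left) and higher (right), with dashed lines at 20.6% and 19.0% for all genes tested. Centromere and kinetochore genes lead with a median of 1.76, and cytochrome P450 genes end the order at -0.71. The former median is partly set by the mean needed for testing, which some of its genes reached only through the ovariectomy libraries.

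Among secreted proteins, the apolipoprotein genes stood lowest: 8 of 14 fell and 2 rose, or 1 without ovariectomy library 2 or 3 or sham library 3, with a median of -0.55 (-0.31 with equal totals). Apoc4 (-0.84) and Apoc3 fell beside Apoa4, while Apoc2, the activator of lipoprotein lipase, was 2722, 2159, 2176 and 2817 in the sham libraries and 4729.7, 7527, 6624 and 4014 after ovariectomy (1.18, limma adjusted p = 0.0029), higher in every library. Of 27 plasma carrier genes 8 fell and 2 rose (median -0.21, and 0.03 with equal totals, where 8 were higher and 5 lower). Rbp4, the retinol carrier, fell from 49809 ± 5228 to 30022 ± 1852 (-0.73), and Pon1, an antioxidant enzyme of high-density lipoprotein, from 1595 ± 115 to 568 ± 169 (-1.53), whereas the increases were Orm2 and Orm1 (1.14), the latter with overlapping groups. Without ovariectomy library 4, 10 plasma carrier genes were higher. Coagulation genes split by the same library: 10 of 20 fell and 0 rose, F12 (-0.53), Proc (-0.42) and Serpinc1 (-0.62) among them, with 4 higher without ovariectomy library 4 and a median of -0.17 that was 0.08 with equal totals, where 6 were higher and 5 lower. Complement genes were mixed, with 7 lower and 2 higher of 24, and with equal totals 1 lower and 8 higher; 4 were lower without ovariectomy library 3 and 8 higher without ovariectomy library 4.

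Most genes of amino acid breakdown and the urea cycle were lower. Of 51 genes tested, 36 fell and 0 rose, with a median of -0.55 (-0.31 with equal totals, where 26 were lower and 2 higher). The summed counts of the 51 genes were 384754, 371144, 360678 and 339538 in the sham libraries and 168929, 174819, 172596 and 188369 after ovariectomy. Asl, which splits argininosuccinate in the urea cycle, was 6135, 6429, 6148 and 6491 and 2253, 2174, 2207 and 2195 (-1.51, SE 0.054, limma adjusted p = 7.33e-06), Prodh, the first enzyme of proline breakdown, was 1751, 1577, 1461 and 1171 and 364, 363, 359 and 341 (-2.04), and Hpd, which acts in tyrosine breakdown, was 5260.3, 5327, 5271 and 5722 and 1148, 1255, 1412 and 1667 (-1.99). Each of the 3 was separate between the groups, and Asl and Prodh were nearly constant after ovariectomy. Cps1, the entry enzyme of the urea cycle and the gene of the group with the highest count, went from 39698 ± 1137 to 20325 ± 2271 (-0.97).

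Of 20 genes of glycogen and glucose output, 14 fell and 0 rose (median -0.67, -0.43 with equal totals), with Fbp1, fructose-1,6-bisphosphatase of gluconeogenesis, from 9267, 10290.5, 10080.1 and 11268 to 5504, 5763, 5205 and 5557 (-0.89, SE 0.076, limma adjusted p = 0.000125). All 4 ovariectomy values of Fbp1 were below all sham values. The pentose phosphate pathway went the other way, 4 of 8 higher and 0 lower (median 0.34, and 7 higher with equal totals): G6pdx, its first enzyme, was 563, 587, 594 and 642 and 1130.1, 1255, 1354 and 1737 (1.18, adjusted p = 0.000347), Pgd rose by 0.72 and H6pd by 0.79. Nucleotide and folate synthesis rose with it, 11 of 23 higher and 1 lower (median 0.28, and 17 higher and 0 lower with equal totals), including Rrm1, a subunit of ribonucleotide reductase (166 ± 19.4 to 395 ± 14.1, 1.25), Tyms, which makes thymidylate (1.27), and Umps (0.78).

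Genes of oxidation in mitochondria and peroxisomes were lower. Of 13 mitochondrially encoded genes 12 fell and 0 rose, with a median of -0.57 (-0.33 with equal totals, where 5 were lower). mt-Nd5 was 88114, 69853, 68329.8 and 64299 in the sham libraries and 36113, 34049, 39524 and 39735 after ovariectomy (-0.95, SE 0.11, limma adjusted p = 0.000504), and mt-Nd6 fell by a similar amount (-0.98); both encode subunits of complex I. Neither overlapped between the groups. In the tricarboxylic acid cycle 13 of 21 genes fell and 0 rose (median -0.35), but with equal totals 1 was lower and 1 higher (median -0.11), and 8, 7 and 8 were lower without ovariectomy library 1, ovariectomy library 2 and sham library 2. Fh1, fumarase, went from 2226 ± 38.7 to 1621 ± 54.9 (-0.46). Of 31 peroxisome genes 19 fell and 0 rose (median -0.36; 9 lower and 2 higher with equal totals). Hacl1, which cleaves 2-hydroxy and branched fatty acids, fell from 2909 ± 415 to 1172 ± 316 (-1.34), and Scp2, a sterol carrier and thiolase gene, from 31014 ± 4631 to 17119 ± 2065 (-0.85).

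Cytochrome P450 genes of families 1 to 4, which oxidize drugs, steroids and fatty acids, had the lowest median of the groups plotted, marker lists aside, -0.71 (-0.47 with equal totals). Of 58 genes 36 fell and 4 rose (29 and 9 with equal totals). Cyp2c69 (chromosome 19 from 39842814 to 39886799 on the minus strand) was 1835, 1739, 1498 and 1209 in the sham libraries and 359.9, 399.8, 394 and 456 after ovariectomy (-1.95, SE 0.14, limma adjusted p = 6.15e-05), Cyp3a44 was 1209, 1301, 1315 and 1284 and 374, 399, 404 and 502 (-1.61), and Cyp2c37 was 977, 864, 781 and 639 and 226, 249, 241 and 264 (-1.72). None of the 3 overlapped. The increases included Cyp1b1 (0.79), Cyp2u1 (0.93) and Cyp2c44 (0.61). The gene of the family with the highest count, Cyp2a4, a steroid 15-alpha-hydroxylase, was 35694, 31817, 28809 and 23409 and 20316, 26589, 30096 and 47146, with a change of 0.00; sham library 4 and ovariectomy library 1 were lowest, sham library 1 and ovariectomy library 4 highest, and the groups overlapped. Genes of this family are close copies, so reads may be split between them.

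The promoter of Cyp2c69 is shown because P450 promoters held a site of the hepatocyte factor HNF4 more often than others. The letters CAAAGTCCA, searched on both strands, were in 7 of 45 P450 promoters with 1 entry, or 15.6%, against 0.589% of 7979 promoters of genes tested and 0.973% of those of genes that fell. Copies of a family share promoter sequence, so these are not independent. The 300 bases from RefSeq (250 before to 50 after the start, GRCm38.p6, chr19:39886720-39887019, minus strand) carry the match in capitals.
Cyp2c69: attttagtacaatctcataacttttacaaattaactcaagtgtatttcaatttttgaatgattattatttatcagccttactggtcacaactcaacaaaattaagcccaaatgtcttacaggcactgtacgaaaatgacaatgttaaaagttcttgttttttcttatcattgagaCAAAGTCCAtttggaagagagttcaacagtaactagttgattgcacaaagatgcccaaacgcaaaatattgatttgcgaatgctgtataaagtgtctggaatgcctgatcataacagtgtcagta

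Other detoxifying groups were split within themselves. Of 49 conjugating enzyme genes 18 fell and 8 rose (median -0.29; 11 and 11 with equal totals). Ugt2a3, a glucuronosyltransferase gene, fell from 3038 ± 118 to 1336 ± 88.2 (-1.19) and Sult2a2 from 929 ± 140.1 to 194 ± 56.9 (-2.28), while Sult4a1 rose from 189 ± 52.0 to 583 ± 54.0 (1.66) and the glutathione transferase gene Gstm7 from 693 ± 34.2 to 1044 ± 54.7 (0.59). Of 14 carboxylesterase genes, which hydrolyse esters and drugs, 5 fell and 4 rose: Ces1c (-1.48), Ces1b (-1.50) and Ces2a (-1.91) fell, and Ces2c (1.22) and Ces2e (0.55) rose. Ces1c was 27916, 27156, 26059 and 25110.0 in the sham libraries and 7222, 8883, 9559 and 13409 after ovariectomy, without overlap. In alcohol, aldehyde and aldo-keto dehydrogenases 9 of 35 rose and 8 fell, with 13 lower without ovariectomy library 4. Adh1 fell from 50565 ± 5263 to 32843 ± 5687 (-0.63) and Aldh18a1, which makes the proline precursor, rose from 189 ± 24.9 to 418 ± 51.0 (1.14).

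Transporters changed in both directions. Of 227 solute carrier genes 66 fell and 30 rose (median -0.17), and with equal totals 42 were lower and 53 higher, with a median of 0.06. Slc10a1, the bile acid importer, was 2629, 2456, 2387 and 2425 in the sham libraries and 508, 526, 565 and 682 after ovariectomy (-2.12, SE 0.097, limma adjusted p = 1.95e-05), and Slco1a4, an organic anion transporter, was 483, 562, 634 and 793 and 93.2, 97.9, 123 and 156 (-2.39). Slc7a7, which exports cationic amino acids, rose from 146, 181, 199 and 178 to 429, 419, 415 and 405 (1.25, adjusted p = 0.000117). The groups of all 3 were separate. Of 40 ABC transporter genes 15 fell, Abcb1a (-0.82) and Abca5 (-1.01) among them, and 9 were lower with equal totals; Abcc2, which pumps conjugates into bile, rose from 10057 ± 442 to 14568 ± 2804 (0.52). In heme synthesis and breakdown 4 of 11 fell and 2 rose, or 1 without sham library 1 or 3 or any ovariectomy library; Alas1, its rate-limiting enzyme, went from 8469 ± 663 to 4006 ± 538 (-1.09). Of 21 steroid and bile acid enzyme genes 8 fell and 0 rose, including Hsd17b13, a lipid droplet dehydrogenase gene (17382 ± 2372 to 9616 ± 626, -0.85), and Hsd17b11 (-1.16).

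Ribosomal protein genes were called less often than all genes tested, while aminoacyl-tRNA synthetase genes and genes of the entry to the secretory pathway were called higher more often. Of the 77 cytosolic ribosomal protein genes limma called 0, with changes from -0.37 to 0.22 and a median of -0.08, and 6 were at an unadjusted p below 0.05. edgeR also called 0, while DESeq2 called 1 higher and 4 lower. With equal totals 21 were higher, and without sham library 4 16 were lower. Rpl4, the one with the highest count, was 12239, 11681, 10949 and 9529.5 in the sham libraries and 10803, 10602, 9719 and 9076 after ovariectomy, and the groups overlapped. Of 77 mitochondrial ribosomal protein genes 9 rose and 5 fell (median -0.02), and with equal totals 30 were higher and 0 lower. Without sham library 4, 13 were lower, and without any other single library 1 to 3. Of 22 aminoacyl-tRNA synthetase genes, which charge tRNAs, 11 rose and 0 fell (median 0.24; 18 higher with equal totals), among them Rars (0.62), Wars (0.64) and Yars (0.55).

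Of 29 genes of the secretory pathway entry, which move new proteins into the endoplasmic reticulum and trim and glycosylate them, 19 rose and 1 fell, or 3 without sham library 4 (median 0.37; 23 and 0 with equal totals). Ostc, an oligosaccharyltransferase subunit gene, was 1262, 1277, 1245 and 1246 in the sham libraries and 2252, 2215, 2094 and 2047 after ovariectomy (0.77, SE 0.058, limma adjusted p = 7.56e-05), with small spread and no overlap. Spcs3 of the signal peptidase (1089 ± 28.1 to 1644 ± 98.6, 0.59) and Srprb of the signal recognition particle receptor (510.4 ± 42.6 to 834 ± 73.0, 0.71) rose with it. Heat shock and J protein genes were split, 12 higher and 13 lower of 62, with 25 and 0 under equal totals. Leaving out sham library 4 gave 18 higher, and leaving out ovariectomy library 2 or 3 or sham library 2 or 3 gave 6 or 7 higher and 6 to 8 lower. Dnajb9, a chaperone cofactor of the endoplasmic reticulum, rose from 1015 ± 139 to 1742 ± 119 (0.79) and Hspa13 from 686 ± 12.3 to 1025 ± 26.3 (0.58). Of 43 proteasome genes 10 rose and 3 fell, with 24 higher under equal totals, 6 higher without ovariectomy library 2 and 8 lower without sham library 4. The increases included Psmb8 (579, 609, 587 and 555 in the sham libraries, 910.0, 935, 889 and 992 after ovariectomy, 0.68, adjusted p = 0.000204) and Psmb9 (1.05), the subunits that replace their standard partners in the immunoproteasome, and the decreases Psmd9 (-0.71) and Psmd8 (-0.62).

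Lysosomal genes were lower more often than higher. Of 31 genes of cathepsins, membrane proteins and the proton pump, 16 fell and 0 rose (median -0.26), with 5 lower and 3 higher under equal totals (median -0.02) and 10 lower without ovariectomy library 3. Ctsl, a cysteine protease gene, was 11639.6, 11437, 9158 and 8580.5 in the sham libraries and 6188, 6154, 5738 and 5342 after ovariectomy (-0.79, SE 0.11, limma adjusted p = 0.00137), and Lamp1, a membrane protein gene, went from 18849.6 ± 1388 to 13195 ± 571 (-0.51). Of 27 autophagy genes 13 fell and 1 rose (median -0.27; 6 and 1 with equal totals), Map1lc3a (-1.03) and Atg3 (-0.64) falling and Atg9b (5.27, 17.6, 12.8 and 27.4, then 121, 87.8, 84.4 and 29.5) rising.

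Centromere and kinetochore genes had the highest median change of the groups plotted, and the other cell division groups were also more often higher than lower. Of 34 centromere and kinetochore genes 24 rose and 1 fell, with a median of 1.76. Nuf2, a kinetochore subunit gene, was 3.16, 3.36, 1.70 and 2.74 in the sham libraries and 42.0, 55.4, 47.5 and 95.4 after ovariectomy (3.98, SE 0.32, limma adjusted p = 0.000107), and its partner Ndc80 was listed at 0 in every sham library and was 15.3, 28.4, 25.5 and 23.6 after ovariectomy. Both were separate between the groups. Both were at or near 0 after sham surgery and reached the mean needed for testing only through the ovariectomy libraries. The rises of such genes, and so the median of 1.76, are partly set by that rule. The summed counts of all 37 listed genes had a log2 ratio of means of 0.26. The single decrease, one of 2 without sham library 4, was in Zwint (1390.3 ± 67.0 to 981 ± 35.0, -0.50), and the gene of this group with the highest count, Cenpb, did not pass (-0.24, adjusted p = 0.0532). Of 44 replication genes 28 rose and 1 fell, or 3 without sham library 4 (median 0.81). Mcm5 (chromosome 8 from 75109569 to 75128439 on the plus strand), a subunit of the replicative helicase, was 41.1, 65.5, 68.1 and 67.5 and 357, 316, 288 and 243 (2.31, SE 0.19, adjusted p = 0.000125), Mcm2 was 157, 156, 166 and 199 and 519, 548, 492 and 395 (1.52), and Cdc45, which activates the helicase, was 100.1, 96.6, 83.5 and 59.0 after ovariectomy (2.72). After ovariectomy these 3 genes were highest in library 1 or 2 and lowest in library 4, whereas Nuf2, Tpx2 and Cdc20 were highest in library 4.

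Kinesin genes, which encode microtubule motors, changed in both directions. Of 29 tested 11 rose and 5 fell, the increases with the smallest p being the mitotic motors Kif14, listed at 0 in every sham library and 18.3, 19.6, 28.1 and 29.5 after ovariectomy, Kif11 (7.38, 21.0, 9.36 and 17.3, then 117, 101, 142 and 193; 3.30, SE 0.35, limma adjusted p = 0.000329) and Kif15 (14.8, 10.9, 11.9 and 13.7, then 46.6, 44.6, 49.2 and 45.2; 1.79), and the decreases with the smallest p the transport motors Kif1c (8028, 7434, 6891 and 6232, then 4646, 4579, 4817 and 4627; -0.61), Kif1b (-0.67) and Kif13a (-0.59). Each of these 6 was separate between the groups. Kif14 reached the mean needed for testing only through the ovariectomy libraries, so it could only be called higher. The summed counts of all 35 listed kinesin genes fell, with a log2 ratio of means of -0.32. Leaving out ovariectomy library 2, sham library 2 or sham library 3 gave 3 decreases in place of 5, and with equal totals 3 were lower and 13 higher. Of 36 genes of cyclins, cyclin-dependent kinases, their inhibitors and E2F factors 17 rose and 4 fell, or 2 without ovariectomy library 2 or 3 or sham library 2 (median 0.55), Cdk1 from 59.0, 59.6, 52.8 and 63.0 to 205, 226, 241 and 344 (2.07, adjusted p = 0.000107) and Ccna2 from 48.5, 54.6, 40.9 and 44.7 to 215, 239.7, 275 and 475 (2.59). Cdkn1a, the p21 brake on the cycle, fell from 8095, 6931, 5642 and 3559.8 to 1437, 1712, 1885 and 2561 (-1.64, adjusted p = 0.00221) and Cdkn2b, another inhibitor, rose from 131 ± 21.8 to 342 ± 21.8 (1.39). Of 51 DNA repair genes 19 rose and 7 fell, with Xpa, of excision repair, falling from 293, 287, 247 and 218 to 143, 172, 151 and 180.0 (-0.69); with equal totals 26 were higher and 1 lower, and 4 were lower without sham library 2.

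Promoters of Mcm5 and Kif11 are shown because E2F letters were commoner in replication promoters, and CHR letters in kinesin and kinetochore promoters, than over all genes. The E2F letters TTTCCCGC and TTTGGCGC were in 7 and 7 of 30 replication promoters (23.3% each), against 2.14% and 1.04% of all 7979. The CHR letters TTTGAA were in 10 of 21 kinesin promoters (47.6%) and 11 of 30 kinetochore promoters (36.7%), against 12.5%, and the letters CCAAT in 63.3% of replication and 60% of kinetochore promoters, against 39.5%. Over all genes that rose, CCAAT was in 45.1% and TTTGAA in 16.2%, and over those that fell in 38% and 10.5%. The CHR and CCAAT letters were not particular to these groups: TTTGAA was in 35.6% of P450, 38.2% of conjugating enzyme and 10% of replication promoters, and CCAAT in 57.1% of those of amino acid breakdown. Motifs were searched on both strands, and a match is not a site of binding. Capitals mark the second E2F letters in Mcm5 (chr8:75109259-75109558, plus strand) and the CCAAT and CHR letters in Kif11 (chr19:37376132-37376431, plus strand), all 3 as their reverse complements, in 300 bases each from RefSeq on GRCm38.p6.
Mcm5: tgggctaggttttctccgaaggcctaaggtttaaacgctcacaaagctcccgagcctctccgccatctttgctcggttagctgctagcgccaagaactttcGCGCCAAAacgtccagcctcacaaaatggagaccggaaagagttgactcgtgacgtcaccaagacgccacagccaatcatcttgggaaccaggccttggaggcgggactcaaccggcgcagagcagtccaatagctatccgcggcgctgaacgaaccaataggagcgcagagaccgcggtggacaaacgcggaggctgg
Kif11: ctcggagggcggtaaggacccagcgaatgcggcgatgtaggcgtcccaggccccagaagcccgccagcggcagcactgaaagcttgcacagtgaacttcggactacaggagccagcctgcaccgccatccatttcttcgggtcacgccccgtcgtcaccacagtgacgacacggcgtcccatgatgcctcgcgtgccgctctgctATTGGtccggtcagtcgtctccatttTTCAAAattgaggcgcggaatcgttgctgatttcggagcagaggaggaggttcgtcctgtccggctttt

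Collagen, tubulin and keratin genes were mostly higher, and the other structural groups less uniform. Of 25 collagen genes 19 rose and 3 fell (median 1.12, 1.36 with equal totals). Col6a3, of the microfibrillar collagen, was 217, 225, 227 and 185 in the sham libraries and 523, 625, 643 and 848 after ovariectomy (1.60, SE 0.15, limma adjusted p = 0.000172), and Col5a2, a fibril gene, was 276, 267, 267 and 283 and 568, 634, 638 and 743 (1.23). Both were separate and were highest in ovariectomy library 4. Col18a1, the basement membrane collagen and the collagen gene with the highest count, fell from 13976, 13635, 12716 and 12962 to 9271, 9552, 10116 and 10303 (-0.44, adjusted p = 0.00163). Of 14 tubulin genes 8 rose and 0 fell (median 0.94), with Tuba1b from 1037 ± 149.7 to 2188 ± 46.1 (1.09) and Tubb6 from 641 ± 83.5 to 1439.6 ± 152 (1.17), while Tubb2a, the tubulin gene with the highest count, had a change of 0.05. Of 8 keratin genes 6 rose and 0 fell, or 3 without ovariectomy library 2 or 3. Krt5, a keratin of basal epithelia, was 16.9, 23.5, 28.1 and 23.7 and 103, 137, 149 and 221 (2.64, adjusted p = 0.000214), and Krt20, of intestinal and urothelial epithelia, 67.4, 83.9, 57.0 and 57.5 and 132, 195, 309 and 626.

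Of 42 metalloproteinase and inhibitor genes 17 rose and 5 fell, with 11 higher without ovariectomy library 3. Timp1, a metalloproteinase inhibitor gene, was 68.5, 57.1, 63.0 and 79.4 in the sham libraries and 651, 554, 442 and 220.3 after ovariectomy (2.68, SE 0.31, limma adjusted p = 0.000462), and Mmp2, a gelatinase gene of fibroblasts, was 54.8, 59.6, 45.1 and 33.8 and 151, 149.9, 137 and 164 (1.65). Mmp12, of macrophages, fell from 258 ± 23.7 to 105 ± 29.4 (-1.32) and Adamts6 from 55.1 ± 6.15 to 12.3 ± 2.09 (-2.08). Of 30 cadherin, claudin and connexin genes 10 rose and 2 fell: Cdh17, the liver-intestine cadherin, was 2120.1, 1761, 1544 and 996 and 5474, 4996, 4403 and 2744 (1.46, adjusted p = 0.00423), and Gjb1, the main connexin of hepatocytes, 11514, 11231, 10152 and 9895 and 13091, 14206, 14204 and 15788 (0.42). Of 23 integrin genes 9 rose and 1 fell, or 5 without ovariectomy library 2 or 3; Itgax, of dendritic cells and macrophages, went from 48.0 ± 4.30 to 126 ± 11.7 (1.37). Annexin and S100 genes were mixed, Anxa2 rising from 3690.5 ± 118 to 5053 ± 259.9 (0.45) and S100a1 falling from 884 ± 55.7 to 405 ± 29.9 (-1.13).

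In signalling, genes that cells switch on within minutes of a stimulus were lower more often than higher. Of 21 immediate early genes 8 fell, 0 rose and 13 did not pass, with 2 higher without ovariectomy library 4 or sham library 1 or 4. The median was -0.61, and -0.37 with equal totals, where 8 were lower and 3 higher. Fosl2, a subunit of AP-1, was 1371, 1242, 1156 and 929.9 in the sham libraries and 474, 444, 508 and 451 after ovariectomy (-1.31, SE 0.12, limma adjusted p = 0.000167), Btg2, an antiproliferative gene, was 3191, 3255, 3148 and 2954 and 1942, 2067, 1977 and 1986 (-0.65), and Klf6 fell from 1872 ± 345 to 936 ± 49.0 (-0.98). Neither Fosl2 nor Btg2 overlapped between the groups. Dusp1, a phosphatase gene that ends MAP kinase signals, was 2229, 2228, 2200.2 and 2394 and 361, 521, 672 and 1127 (-1.88, adjusted p = 0.00191), and Dusp6, an ERK phosphatase gene, did not pass (0.30, adjusted p = 0.219). Of 33 growth factor and receptor genes 8 rose and 8 fell: Igf1 was 7893, 8374, 8694 and 9829.7 and 3782, 3554, 3644 and 3409 (-1.27, adjusted p = 3.55e-05), Klb, the coreceptor of FGF21, fell from 672 ± 46.7 to 327 ± 32.0 (-1.04), Il6ra from 957 ± 34.6 to 581 ± 77.0 (-0.73), and Pdgfb rose from 78.1 ± 14.1 to 183 ± 11.4 (1.23). Without ovariectomy library 1, 2 or 3 or sham library 2, 5 of these genes were higher.

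Hepatocyte transcription factor genes were called lower more often than all genes tested, with Hnf4a not among them. Of 25 tested 8 fell and 4 rose, the increases being lost to 2 or fewer in 7 of the 8 fits with a library left out (all but that without sham library 4). Hnf4a, the master factor of hepatocytes, was 13375, 11905, 11219 and 10246 in the sham libraries and 11895, 11426, 11481 and 10321 after ovariectomy (-0.05, limma adjusted p = 0.718), and with equal totals it was called higher (0.20). Nr1i2, the drug sensor PXR, fell from 1934, 1847, 1716 and 1419 to 969.6, 1022, 961 and 1016 (-0.79, adjusted p = 0.000645), Ppara, the fatty acid sensor, from 1546 ± 44.2 to 1082 ± 103 (-0.52) and Creb3l3 from 5075 ± 72.2 to 3759 ± 144 (-0.43). The 293 zinc finger genes named Zfp, most of which encode KRAB repressors, had 43 higher and 37 lower (81 and 18 with equal totals). Without sham library 4 90 were higher, and without sham library 2 or 3 or ovariectomy library 1, 2 or 3 18 to 28 were higher and 21 to 26 lower. Rab GTPase genes, which steer vesicles, had 11 of 47 lower and 4 higher (4 and 9 with equal totals), with Rab30 from 576 ± 205 to 153 ± 14.1 (-1.84) and 7 lower without sham library 2.

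Interferon-induced genes had the largest share of increases among the groups plotted, marker lists aside. Of 48 tested 44 rose, 0 fell and 4 did not pass, with changes from 0.11 to 3.38 and a median of 1.28. Their summed counts were 13936, 16875, 18431 and 21788 in the sham libraries and 37103, 37484, 35847 and 35189 after ovariectomy, lowest in sham library 1 and highest in sham library 4. Isg15 (chromosome 4 from 156199424 to 156200818 on the minus strand), a ubiquitin-like modifier, was 81.1, 105, 106 and 120.5 and 584, 602, 554 and 559 (2.48, SE 0.12, limma adjusted p = 2.21e-05), and Ifit1 (chromosome 19 from 34640871 to 34650009 on the plus strand), which binds uncapped viral RNA, was 74.8, 103, 105 and 125 and 530.3, 628, 652 and 669 (2.61, SE 0.16, adjusted p = 3.17e-05). Every ovariectomy library of both was more than 4 times every sham library. Iigp1, an immunity GTPase and the member with the highest count, was 3076, 4091, 4908 and 6218 and 12719, 11619, 10629 and 8009.7 (1.26).

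The letters GAAANNGAA of the interferon-stimulated response element, searched on both strands, were in 23 of 29 promoters of this group (79.3%), against 7.49% of 7979 promoters of genes tested, 9.72% of those of genes that rose and 5.9% of those of genes that fell. The list was written from genes known to respond to interferon, so the share describes the list. The palindromic estrogen response element was in 0 of the 7979, which says only that its letters are not in these windows. The promoters of Isg15 (chr4:156200769-156201068, minus strand) and Ifit1 (chr19:34640639-34640938, plus strand) are shown from RefSeq on GRCm38.p6, from 250 bases before to 50 after the start, with the letters in capitals. Each has 3 matches, which overlap one another in Isg15 and in 2 of the 3 cases in Ifit1, where they read as the reverse complement.
Isg15: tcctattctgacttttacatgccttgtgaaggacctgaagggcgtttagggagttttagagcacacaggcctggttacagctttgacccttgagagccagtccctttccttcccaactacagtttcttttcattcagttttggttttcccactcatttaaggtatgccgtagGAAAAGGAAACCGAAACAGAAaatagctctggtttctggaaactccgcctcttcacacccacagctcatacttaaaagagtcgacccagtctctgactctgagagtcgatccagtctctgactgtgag
Ifit1: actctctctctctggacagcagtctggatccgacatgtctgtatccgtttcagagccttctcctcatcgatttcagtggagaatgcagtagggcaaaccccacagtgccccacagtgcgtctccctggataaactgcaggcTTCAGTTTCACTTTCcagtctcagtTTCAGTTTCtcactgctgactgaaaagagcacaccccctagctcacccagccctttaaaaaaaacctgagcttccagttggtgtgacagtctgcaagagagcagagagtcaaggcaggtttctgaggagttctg

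Of 27 genes of the H2 complex 15 rose and 2 fell (median 0.42), with 1 lower without ovariectomy library 1, 2 or 3 or sham library 1, 2 or 3. The class II genes H2-Aa (582, 515, 488 and 386, then 939, 1069, 1029.6 and 1154; 1.10, limma adjusted p = 0.000473) and H2-Eb1 (411, 368, 391 and 257, then 826, 856, 888 and 985; 1.33), which present antigen to helper T cells, rose without overlap. The liver class I gene H2-Q10, with the highest count, had a change of 0.05 (adjusted p = 0.695). H2-Ke6, whose product is a hydroxysteroid dehydrogenase, fell from 733 ± 75.6 to 492 ± 67.9 (-0.58).

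Of 28 chemokine and receptor genes 14 rose and 2 fell (median 0.71). Cxcl9, a T cell attractant induced by interferon gamma, was 119, 103, 115 and 90.3 in the sham libraries and 276, 308, 358 and 492 after ovariectomy (1.71, SE 0.18, limma adjusted p = 0.000356), Cxcl13, which attracts B cells, was 37.9, 48.7, 61.3 and 69.4 and 206, 199, 189.9 and 209 (1.90), and the neutrophil attractant Cxcl3 was 9.48, 14.3, 15.3 and 8.21 and 257, 244, 197 and 100.3 (3.92). All 3 were separate, and Cxcl9 was highest and Cxcl3 lowest in ovariectomy library 4. Cxcl12, made by stroma and endothelium and the chemokine gene with the highest count, fell from 2469, 2472, 2617 and 2641 to 1731, 1656, 1646 and 1598 (-0.62, adjusted p = 0.000194). Of 37 interleukin and receptor genes 10 rose and 4 fell, Il33, an alarm cytokine gene, from 149 ± 21.9 to 362 ± 44.9 (1.27) and Il22ra1, the IL-22 receptor of hepatocytes, from 392 ± 83.5 to 143 ± 11.4 (-1.43). Of 27 Toll-like receptor and C-type lectin genes 11 rose and 6 fell, with Tlr3, which senses double-stranded RNA, from 80.1, 80.6, 100.4 and 102 to 245, 214, 183 and 187 (1.18, adjusted p = 0.000545) and Tlr12 from 294, 342, 329 and 349 to 121, 172, 159 and 176 (-1.08); 2 were lower with equal totals.

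Marker lists of cell types differed in whether they separated sham from ovariectomy libraries, and their part in the results was not tested. Of 10 hepatocyte markers 5 fell and 0 rose (4 and 2 with equal totals), and their summed counts were 3935630.1, 3528553, 3152093 and 2686744 in the sham libraries and 2352932, 2365737, 2267777 and 2311981 after ovariectomy, mostly Alb; 8 fell without sham library 4. Ttr fell from 141141 ± 11755 to 72323 ± 13400.3 (-0.98) and Cyp2e1 from 6316 ± 730.5 to 3203 ± 366 (-0.98), while Fabp1 (0.22) did not pass. Of 8 sinusoidal endothelial markers 5 fell and 0 rose, the sums being 5634, 5496, 5383 and 5101 and 4012, 3767, 3888 and 3786, without overlap. Lyve1 went from 326, 363, 375 and 465 to 167, 171, 176 and 191 (-1.10, limma adjusted p = 0.00034) and Stab2 from 891, 980.4, 997 and 1079.5 to 630.4, 582, 575 and 554 (-0.75). Of 8 Kupffer cell markers 3 fell and 0 rose (1 and 2 with equal totals), with sums of 6093, 6049, 5847 and 5743 and 6195, 5810.0, 5366 and 4054 that overlapped; 1 fell without sham library 1, 3 or 4 or ovariectomy library 2 or 3. Marco, a scavenger receptor gene called with each library left out in turn, fell from 96.9, 144, 144 and 179 to 57.3, 79.0, 62.4 and 82.6 (-0.97). With all 16 libraries in the fit, 0 Kupffer cell markers were lower and 0 higher, so Marco also lost its call there.

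The mesothelium list, which covers the cell layer on the surface of the liver and was written with an earlier result for Msln known, was higher in 8 of 8 genes, 7 or 8 with a library left out, with a median of 2.69. Upk3b was 10.5, 9.23, 14.5 and 9.13 in the sham libraries and 90.9, 94.5, 103 and 114 after ovariectomy (3.12, SE 0.20, limma adjusted p = 3.5e-05), Upk1b was 2.11, 3.36, 0 and 0 and 29.0, 45.9, 48.4 and 48.2, Lrrn4 was 8.43, 7.55, 4.26 and 6.39 and 33.6, 37.8, 36.0 and 32.5 (2.26), and Wt1, a transcription factor gene of mesothelium, was 0, 0, 5.96 and 1.83 and 15.3, 16.9, 22.0 and 21.6. None of the 4 overlapped, and their counts were small. Upk1b, Lrrn4 and Wt1 reached the mean of 10 needed for testing only through the ovariectomy libraries, so their calls are partly set by that rule. Without the keratins Krt18 and Krt19, which hepatocytes and bile duct cells also express, the summed counts were 48.5, 50.4, 65.5 and 31.9 and 348, 386, 395 and 436. Of 8 bile duct markers 7 were tested, 3 rose and 1 fell, with 1 higher without ovariectomy library 2 or 3, and apart from Spp1 their sums were 893, 878, 982 and 1081 and 1106, 1070.3, 1143 and 979, which overlapped; Epcam had a change of 0.00 (adjusted p = 0.985) and Sox9 of 0.38 (adjusted p = 0.131).

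Stellate cell markers were split, 3 of 8 lower and 2 higher: Reln fell from 2027, 1920.4, 1907 and 1854 to 1028, 1054, 1106 and 1308 (-0.78, limma adjusted p = 0.000373) and Dcn from 2244 ± 287 to 1587 ± 146 (-0.50), whereas Pdgfrb rose from 232, 205, 195 and 254 to 378, 388, 433 and 443 (0.89) and Des from 73.3 ± 7.05 to 116 ± 12.5 (0.65). Lymphocyte and neutrophil markers had low counts, and most lymphocyte markers did not reach the mean of 10 needed for testing. A gene low in 1 group can reach it through the other alone, as Cd79b did, so these rises are partly set by that rule. Of 7 B and plasma cell markers 2 were tested and both rose, Jchain from 8.43, 17.6, 11.9 and 23.7 to 113, 115, 73.9 and 70.8 (2.58) and Cd79b from 2.11, 10.1, 4.26 and 14.6 to 22.2, 23.6, 34.3 and 29.5 (1.94), with sums of 17.9, 54.6, 19.6 and 55.7 and 179, 182, 160.0 and 152. Of 9 T and NK cell markers 2 were tested and both rose, Klrb1c among them (11.6, 11.8, 14.5 and 19.2, then 23.7, 29.0, 28.1 and 28.5; 0.92). Neutrophil markers summed to 423, 413, 373 and 339 and 391, 377, 384 and 279, which overlapped. The hemoglobin gene Hba-a1 was 1104, 2789, 3539 and 6069 and 717, 879, 965 and 1407 (-1.57, adjusted p = 0.0278), lowest in sham library 1 and highest in sham library 4. The groups overlapped, and the call was lost with equal totals and in 5 of the 8 fits with a library left out. The Y-linked genes Ddx3y, Eif2s3y, Kdm5d and Uty were at most 4.21 in any library.

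**Figure D5:**
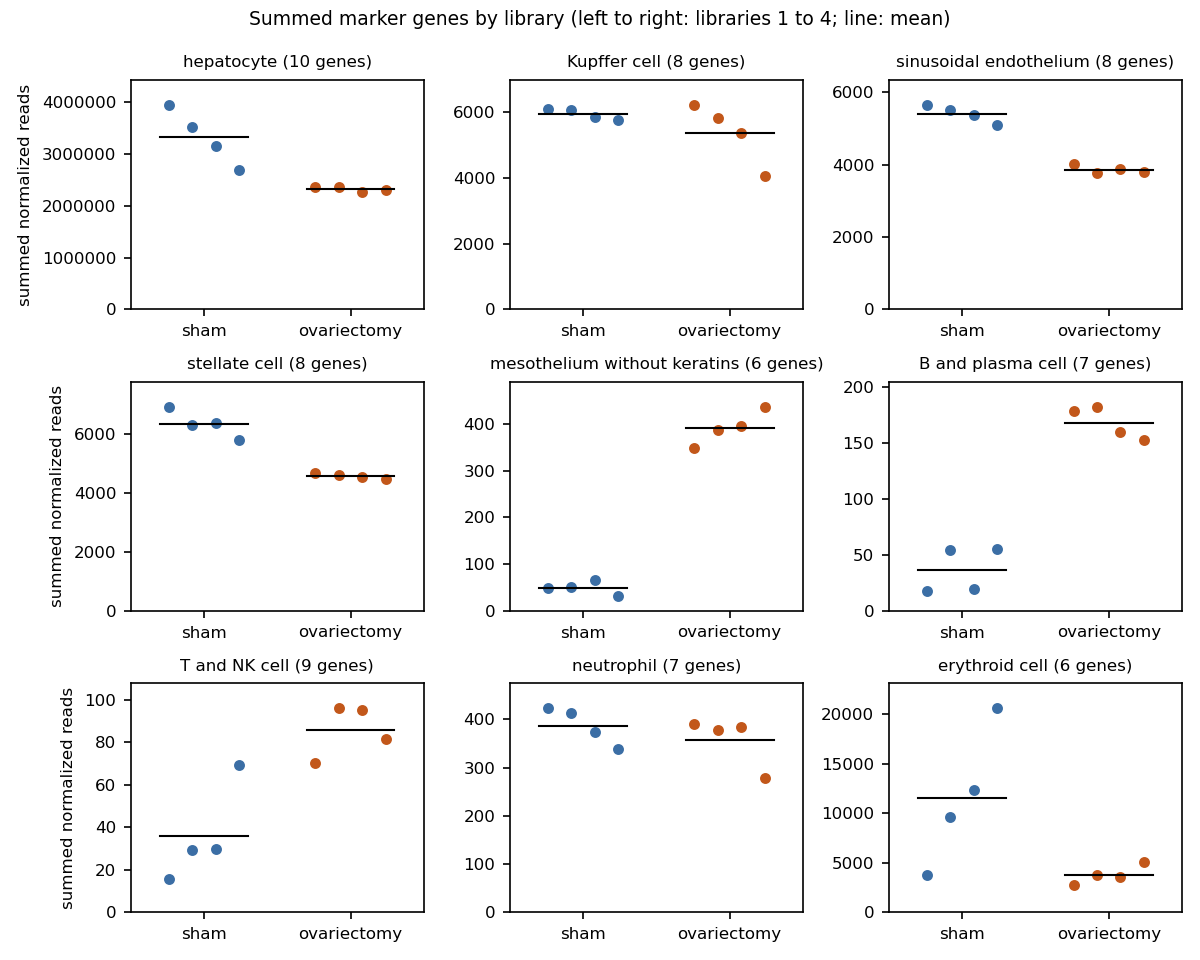
Summed normalized read counts of the marker lists are drawn by library on linear y axes from 0, libraries 1 to 4 from left to right in each group, with a line at the group mean. The sums of the mesothelium list without keratins separate the groups (at most 65.5 after sham surgery), as do those of the sinusoidal endothelium, and the erythroid sum is highest in sham library 4.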

How the data were processed

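Per the labels' protocols, RNA was extracted with TRIzol and 200 ng was used for each poly(A) library, prepared after BGI's protocol. Per the submitters' processing notes, FastQC, HISAT2, SAMtools and StringTie were used with the mm10 build; the sources used here give no versions. The authors deposited 1 table of signal values per gene for all 16 libraries, which are read counts divided by a factor for each library. 100.0% of the values came out as whole reads within 0.01 after division by the value of 1 read, so depth was recovered, and the scale matched that of a median-of-ratios normalization. The treatment of strand and of multiply mapped reads is not stated. Coordinates are from GENCODE M21 on GRCm38 (mm10), which held 1 match for 16479 of the 16793 gene names, and 24 names had been turned into dates.

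The 8 libraries were grouped by the labels. The 13059 genes with a mean of at least 10 were tested with limma (3.58.1, R 4.3.3, trend and robust) on log2(value + 1), with Benjamini-Hochberg adjustment over all of them, the 4 libraries of each group and no covariate. Values are means ± SD with n = 4, and intervals are 95%. On simulated counts, the same steps recovered 63 of 100 genes changed by 1 and 92 of 100 changed by 2 (log2), with 4 unchanged genes called. Only these genes of the 13059 were changed there, against 39.6% called in the data, and the simulated libraries were drawn independently. The recovery and the false calls therefore need not hold for the data. The alternatives were edgeR (4.0.16) and DESeq2 (1.42.0) on the recovered reads, other scalings, pseudocounts and filters, all 16 libraries, a replicate block, each library left out, and libraries 1 and 4 alone, where edgeR and DESeq2 were added after seeing the data.

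Members and lists were chosen with earlier results of these data known. Named genes are, for each count class and direction, up to 5 with the largest change among called genes whose groups do not overlap and up to 3 with the smallest p among called changes of 0.5 to 1. To these were added, from a mean of 100 up, the 3 genes per class with the narrowest interval within 0.25 of 0, the 12 genes with the highest mean, for each list up to 3 called genes per direction with the smallest p and the member with the highest mean, and Lcat, Esr1 and the markers. Predicted genes, immunoglobulin and T cell receptor genes and date names were left out of the first rule. Some genes that the rules name are not reported here. Near-identical copies may share reads. RefSeq promoters (GRCm38.p6, 250 bases before to 50 after the start, 1 entry for 7979 genes) were searched on both strands for 13 motifs: the CCAAT box (CCAAT), the CHR element (TTTGAA), both E2F forms (TTTCCCGC and TTTGGCGC), the interferon element (GAAANNGAA), the STAT site (TTCNNNGAA), the sterol element (TCACCCCAC), the HNF4 site (CAAAGTCCA), the HNF1 site (GTTAATNAT), the C/EBP site (TTNNGCAA), the antioxidant element (TGACNNNGC), the CRE (TGACGTCA) and the estrogen response element. Matches of different motifs may overlap.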

Additional observations from a re-analysis of the deposited data

Results flagged for a closer look

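In each result below, 1 library of a group of 4 stood apart from the other 3 by more than Dixon's 95% criterion allows. Chance flags about 1 in 20 groups, and both groups of each of the named genes, of which 223 were tested, were examined. The flags below are no more than that rate would give. Explanations were not tested.

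Sham library 1 was apart in 5 genes. Lcn2 was 36104 against 49946 to 51253 in the other 3, Hpx was 150858 against 171225 to 175353 in the other 3, Mcm5 was 41.1 against 65.5 to 68.1 in the other 3, Enpp3 was 842 against 765 to 777 in the other 3, and Zfp36l2 was 2068 against 1753 to 1793 in the other 3. Sham library 4 was apart in 4 others. Hpd was 5722 against 5260.3 to 5327 in the other 3, Dusp1 was 2394 against 2200.2 to 2229 in the other 3, Pdcd4 was 1030.2 against 887 to 911 in the other 3, and Bub1 was 5.48 with the other 3 listed at 0. Sham library 3 was low in Adamts6, at 46.0 against 57.1 to 59.0 in the other 3, and was the only sham library with reads of Eif2s3y, at 0.851.

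After ovariectomy, library 1 was low in Upk1b (29.0 against 45.9 to 48.4 in the other 3), Psmd8 (3731 against 3939 to 3951 in the other 3) and Klrb1c (23.7 against 28.1 to 29.0 in the other 3). Library 3 was low in Taok1, at 930.3 against 976 to 984 in the other 3, and library 4 was high in Cyp2c44, at 716 against 675 to 681 in the other 3. Of the 15 of these genes that were tested, the 13 other than Taok1 and Hpx were called, and each of the 13 was also called with any 1 library left out.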

How the results depend on the processing

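Esr1 missed the threshold in all alternatives run, at -1.03 (libraries 1 and 4) to 0.49 (without ovariectomy library 4). Of 5170 genes called, 2484 were higher and 2686 lower. At an adjusted p below 0.01, 2606 were called, 1249 higher and 1357 lower. With equal totals 4441 were higher and 1209 lower. On libraries 1 and 4 alone limma called 0 (0 higher, 0 lower), edgeR 0 and DESeq2 543 (318 higher, 225 lower), and Lcat was -0.77 (limma adjusted p = 0.274); the 2 count tools on these libraries were chosen after seeing the data. With 1 library left out, 3656 to 6515 genes were called, 1749 to 3212 higher and 1860 to 3303 lower, and Lcat was called, from -0.78 to -0.70. edgeR, DESeq2, TMM, other pseudocounts, other filters and all 16 libraries moved these counts by less than 1.5 times. With the replicate block 4339 were called, 2052 higher and 2287 lower. The same replicate numbers correlated at -0.03, 0.04, -0.06 and -0.006 in their deviations from the group means. These values over all genes tested showed no pairing by number, but cannot exclude one that acts on few genes. Of 4663 combinations of a named gene and a setting, 4393 stayed on their side of the threshold (in 29 of these, of genes not called, the sign turned), 246 lost the call (199 of them on libraries 1 and 4) and 20 gained it. With equal totals 10 named genes changed sign, of which 4 were then called, Eif4ebp2 (0.19), Hnf4a (0.20), Serpina12 (0.21) and Taok1 (0.23), and the scaling alone moves the median of all genes by 0.24. Low counts limit precision: the median SE was 0.29 at a mean of 10 to 100.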
